A study of Rattus norvegicus with 36 samples.

Results

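The 10 genes of cholesterol export and lipid storage described here are Nr1h3, Abca1, Abcg1, Apoe, Mylip, Lpl, Plin2, G0s2, Pnpla2 and Mgll, followed by symbol through all 12 groups of a study of rat alveolar macrophages. All 10 were among the 23487 genes of the expression table, and all 10 were among the 14606 that passed a filter on low counts and were tested. RNA sequencing had been done on primary cultured macrophages from the lungs of male rats of the F344 strain. They spent 5 days in DMEM medium with 10% serum (fetal bovine) and 1% of an antibiotic and antimycotic mixture, and the particle exposure lasted 4 days. The particles were Printex90, a carbon black, and G1-1, G3-1 and Bayertitan, which are titanium dioxides. For each particle there were 3 conditions (control, non-overload and overload) of 3 libraries each, 36 libraries in all, so that no control served 2 particles. The series title names the question, the response of alveolar macrophages to overload, in which cells carry more particles than they can clear. How much of each particle was added is not stated in the labels. Libraries of a group are labelled as biological replicates, but the labels do not tell whether each came from its own animal or culture, so p-values here only gauge the spread among these libraries, and that spread may be technical.

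Alveolar macrophages take up surfactant lipid and cell debris, and they return the cholesterol to lipoproteins or store it as esters in lipid droplets. The liver X receptors (LXR), of which Nr1h3 encodes LXR alpha, are nuclear receptors that bind oxysterols and switch on the genes of cholesterol export. Among these are the transporters Abca1 and Abcg1, the apolipoprotein Apoe, and Mylip, a ubiquitin ligase also called Idol that sends lipoprotein receptors to degradation. Lipid droplets are coated by perilipins such as Plin2. Their triglyceride is broken down in sequence by the lipase encoded by Pnpla2, which the G0s2 protein inhibits, and by monoglyceride lipase, encoded by Mgll.

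The libraries held 26.1 to 43.2 M counts each. Macrophage genes were measured in all 36 libraries, with Mrc1 between 917 and 1233 CPM (counts per 1 M, scaled to library size), Cd68 between 603 and 974 CPM and Fabp4 between 1001 and 1562 CPM, while Marco, another macrophage marker, reached no more than 1.09 CPM. The fibroblast collagen gene Col3a1 set 8 libraries apart, at 13.6 to 109.5 CPM, from the other 28, at 2.88 CPM or less. With G3-1 these were replicates 1 and 2 in both control and overload. With Printex90 they were replicate 2 in both control and non-overload, with G1-1 replicate 2 in overload, and with Bayertitan replicate 1 in non-overload. Epithelial markers, 17 of 18 of which were in the table, were present in all libraries, with Krt7 at 485 to 1062 CPM, whereas the surfactant gene Sftpc was at 0 in 34 libraries. From control to overload, their mean log2 level (± SD, n = 3) went from 4.36 ± 0.163 to 4.01 ± 0.185 for G1-1, from 4.15 ± 0.323 to 3.69 ± 0.0283 for Printex90, from 4.27 ± 0.171 to 4.10 ± 0.151 for G3-1 and from 4.14 ± 0.0509 to 4.09 ± 0.0822 for Bayertitan. Summed, the markers ran from 1914 to 2515 CPM in G1-1 control, 1569 to 2196 in G1-1 overload, 1403 to 2418 in Printex90 control and 1432 to 1684 in Printex90 overload. In these bulk samples, fewer cells of a type and less RNA per cell cannot be told apart. Adipocyte genes need a remark because several of the 10 genes are also fat cell genes: Adipoq stood at 51.5 to 96.9 CPM and Cfd at 37.5 to 87.9 CPM, but the fat cell droplet coat Plin1 stayed at 0.128 CPM or less and leptin, Lep, was at 0 in 35 libraries. Summed, the 7 adipocyte markers were lower in overload than in control without overlap with G1-1 (125.2 to 127.6 against 145.8 to 154.2 CPM), Printex90 (118.2 to 125.8 against 160.2 to 168.2 CPM) and G3-1 (147.0 to 160.2 against 166.4 to 176.1 CPM). With Bayertitan the sums overlapped (113.3 to 143.9 against 143.6 to 159.5 CPM). The part of these genes in the results was not tested.

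The promoter stretches of 4 of the genes that rose in overload are shown, and these genes are taken up again with the results below. Apoe also rose, with Printex90, and its listed promoter is not shown. The letters are the 250 bases before the transcription start, from RefSeq's annotation of the GRCr8 assembly, read 5′ to 3′ on the strand of the gene. Plin2 has 2 listed starts, and the stretch before the more upstream one is given. Capitals mark CACGTG, an E-box, in Abca1, Plin2 and Mgll, and in Mgll and G0s2 also GCGTG or, on the other strand, CACGC, a form of the core to which hypoxia-inducible factors bind.
Abca1, chr5:72596474-72596723, minus strand: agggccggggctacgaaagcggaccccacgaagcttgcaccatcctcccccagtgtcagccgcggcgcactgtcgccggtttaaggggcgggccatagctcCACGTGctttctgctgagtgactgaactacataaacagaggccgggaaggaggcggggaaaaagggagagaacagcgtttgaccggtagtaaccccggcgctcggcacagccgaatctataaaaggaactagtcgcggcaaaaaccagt
Plin2, chr5:106229019-106229268, minus strand: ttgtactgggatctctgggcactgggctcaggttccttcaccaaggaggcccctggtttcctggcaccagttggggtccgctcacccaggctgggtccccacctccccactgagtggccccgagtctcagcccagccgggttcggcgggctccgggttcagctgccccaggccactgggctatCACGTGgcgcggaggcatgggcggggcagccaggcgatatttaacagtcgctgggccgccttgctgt
G0s2, chr13:107335949-107336198, minus strand: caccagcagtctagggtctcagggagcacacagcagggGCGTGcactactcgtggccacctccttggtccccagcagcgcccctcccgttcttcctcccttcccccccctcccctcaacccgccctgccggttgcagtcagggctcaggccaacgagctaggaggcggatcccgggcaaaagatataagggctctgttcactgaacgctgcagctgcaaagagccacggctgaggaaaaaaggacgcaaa
Mgll, chr4:122749186-122749435, plus strand: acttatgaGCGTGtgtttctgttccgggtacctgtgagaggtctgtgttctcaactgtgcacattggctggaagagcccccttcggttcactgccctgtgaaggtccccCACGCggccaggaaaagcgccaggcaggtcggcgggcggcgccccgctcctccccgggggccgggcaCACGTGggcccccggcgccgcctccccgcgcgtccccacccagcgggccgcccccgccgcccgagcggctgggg

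Promoters were listed for 8 of the 10 genes, without Abcg1 and Lpl, and were searched on both strands over 300 bases, 250 before the start and 50 after it. Shares are of all 33469 promoters of that length. AGGTCA, the half-site of which LXR and its partner RXR bind a spaced pair, was found in 16.2% of promoters and, of the 8 genes, in that of G0s2, 23 bases after the start and so past the letters shown. CACGTG was found in 6.42% of promoters, among them those of Abca1, Mgll and Plin2, where it begins 149, 74 and 67 bases before the start. The shorter ACGTG, which every CACGTG contains, is the other form of the core bound by hypoxia-inducible factors. It was found in 19.3% of promoters and in those of Abca1, Apoe, Mgll and Plin2. GCGTG was found in 29.7% and in those of G0s2, Mgll and Mylip. The motifs were chosen with the results known, and a match describes the letters of the window only.

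In overload, the export transporter gene Abca1, the lipase inhibitor gene G0s2 and the lipase gene Mgll rose with both G1-1 and Printex90, and Mylip fell with both. Abcg1 rose with G1-1, and Apoe and Plin2 rose with Printex90. With G3-1 Mgll alone was called, and with Bayertitan none was. The receptor gene Nr1h3, the lipoprotein lipase gene Lpl and the triglyceride lipase gene Pnpla2 were called in none of the 4 comparisons with control. With the epithelial marker level as a term in the fit, the calls of Abca1, Abcg1, Apoe and Plin2 with these particles were lost. Those of G0s2, Mgll and Mylip with G1-1 and Printex90 held. In that fit Nr1h3 was called lower with G1-1 and Printex90, and Apoe and Lpl were called lower with G1-1. The mean epithelial level was itself lower in overload than in control with both particles, so this fit cannot separate it from overload. A gene was called where the p from the quasi-likelihood test of edgeR, adjusted by Benjamini-Hochberg over all 14606 genes, was under 0.05.

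For G1-1, 5 of the 10 genes were called in overload against control, 4 higher and 1 lower, where 28.1% of all genes tested were called, 13.7% higher and 14.4% lower. For Printex90 6 of 10 were called, 5 higher and 1 lower, beside 14.8% of all genes, 7.45% higher and 7.31% lower. For G3-1 it was 1 of 10 beside 0.568%, and for Bayertitan 0 of 10 beside 0.329%. With Bayertitan 4 of the 10, Mylip, G0s2, Pnpla2 and Mgll, had an unadjusted p under 0.05 in edgeR, and DESeq2 also called 0. The median log2 fold change of the 10 genes was 0.17, 0.25, 0.12 and 0.06 for G1-1, Printex90, G3-1 and Bayertitan, where the medians over all genes were -0.019, -0.015, -0.0083 and -0.00015. The libraries of overload and control did not overlap for 6, 7, 2 and 6 of the 10 genes, beside 37.5%, 32%, 11.6% and 15.7% of all genes. Without the 8 libraries with high Col3a1, the calls numbered 6, 6, 0 and 0, beside 4560, 1732, 0 and 86 calls among all genes. In the fit of all 36 libraries these all-gene counts were 4105, 2155, 83 and 48. Without those libraries G3-1 kept replicate 3 alone in control and in overload. No gene at all was called with G3-1 there, so that 0 is no result about the 10 genes.

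**Figure D1:**
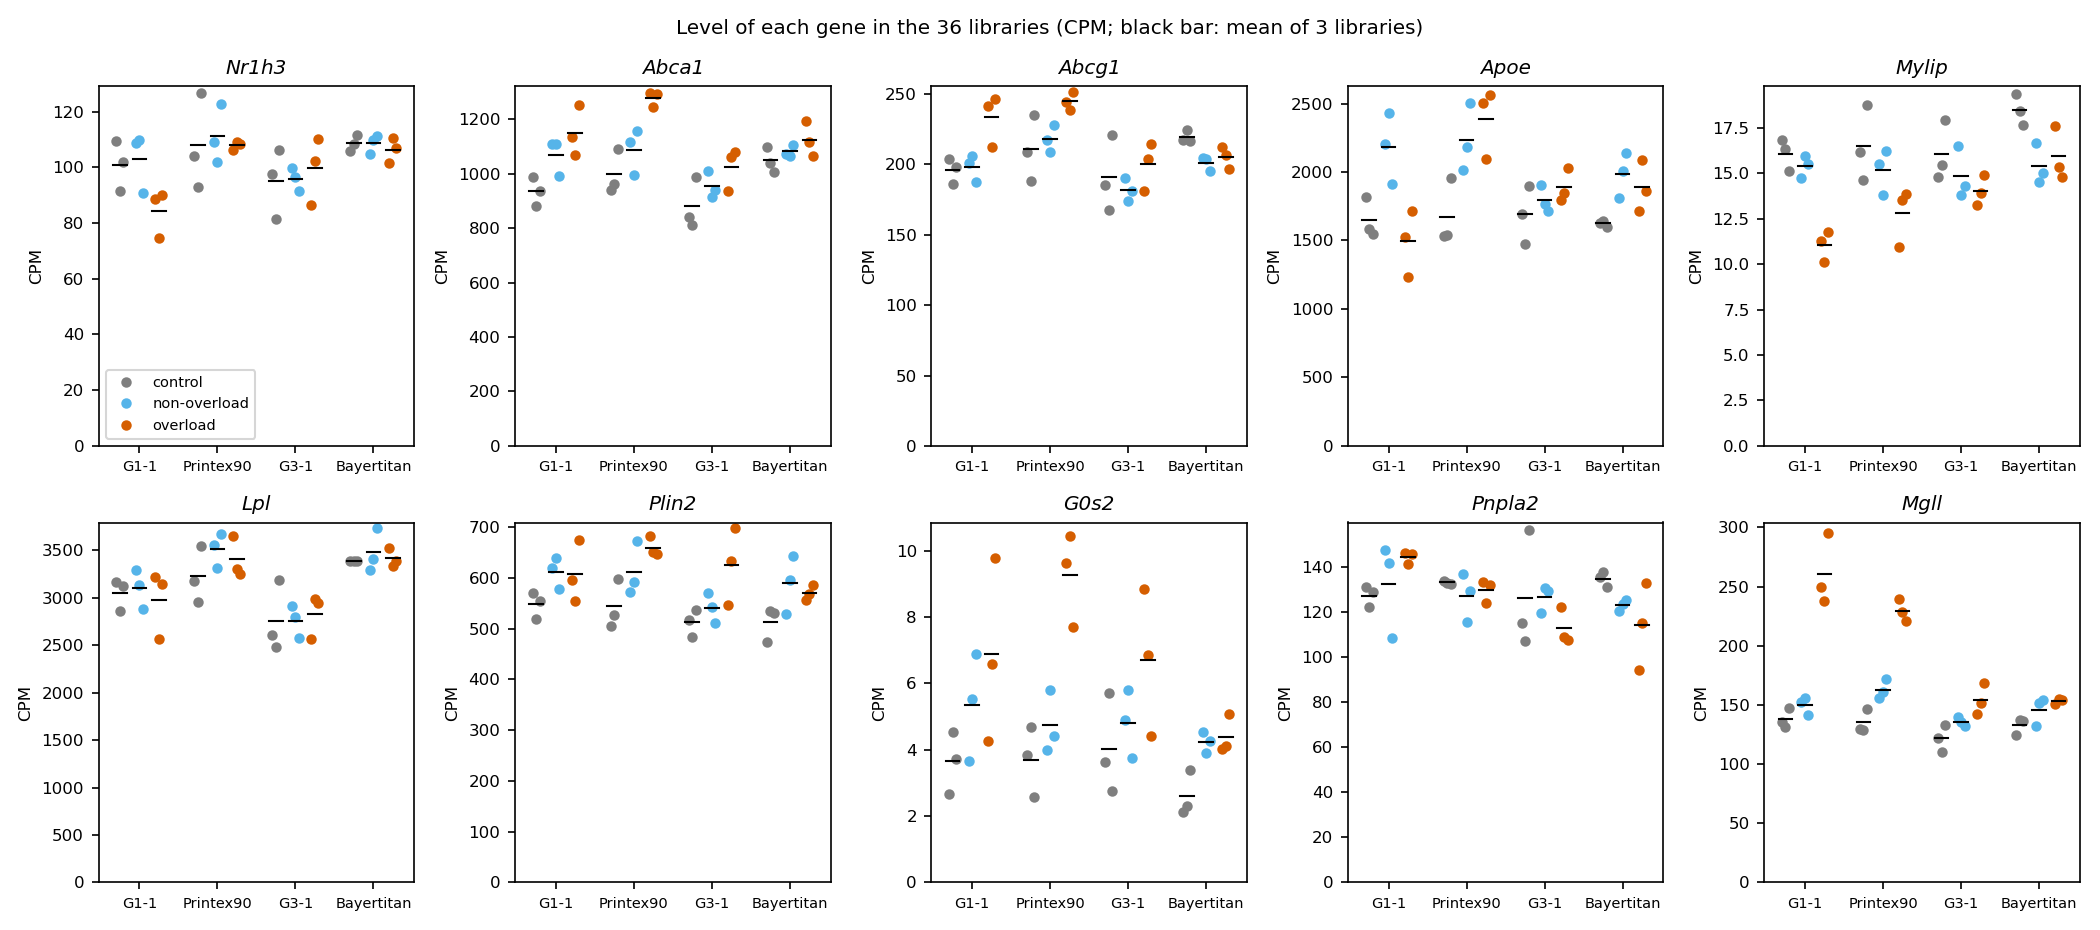
Level in CPM of each of the 10 genes (1 panel per gene, axes from 0) in the 36 libraries, by particle along the horizontal axis and by condition in colour, with a black bar at the mean of 3 libraries. Mgll in overload sits at 238 to 295 CPM with G1-1 and at 221 to 239 CPM with Printex90, above every library of the other 10 groups, which end at 172 CPM.

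Nr1h3, the gene of LXR alpha, was measured at 74.6 to 127 CPM over the 36 libraries. It stood at 109, 91.4 and 102 CPM in the 3 G1-1 controls, and at 88.8, 74.6 and 89.99 CPM in G1-1 overload. The overload libraries were all below the controls, replicate 2 with its high Col3a1 being the lowest. The log2 fold change was -0.26 (SE 0.10), with an edgeR adjusted p of 0.0643, which did not pass. It became a call at -0.33 without G1-1 control replicate 2. With the other particles the log2 fold changes of Nr1h3 were -0.0013, 0.07 and -0.03 for Printex90, G3-1 and Bayertitan, and the libraries overlapped.

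Abca1, whose protein loads cholesterol and phospholipid onto apolipoprotein A-I, was measured at 812 to 1298 CPM. Its levels were 941, 962 and 1091 CPM in the Printex90 controls and 1298, 1245 and 1292 CPM in Printex90 overload. For G1-1 they were 989, 882 and 935 CPM in control and 1133, 1069 and 1251 CPM in overload. With both particles every overload library lay above every control library. The log2 fold change was 0.36 (SE 0.08, edgeR adjusted p = 0.00184) with Printex90 and 0.30 (SE 0.08, edgeR adjusted p = 0.00313) with G1-1. With the epithelial level in the fit these values were 0.11 and 0.12, and neither was called. With G3-1 Abca1 stood at 843, 812 and 989 CPM in control and at 936, 1061 and 1080 CPM in overload, which overlap, and the log2 fold change of 0.22 did not pass (edgeR adjusted p = 0.214). It passed at 0.32 without G3-1 control replicate 3, the highest of the 3 controls. That library had Col3a1 at 0.032 CPM, so the fit kept only the G3-1 controls of high Col3a1, replicates 1 and 2. With Bayertitan the log2 fold change of Abca1 was 0.10 (95% interval -0.05 to 0.26).

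Abcg1, whose protein passes cholesterol to high-density lipoprotein, stood at 204, 186 and 198 CPM in the G1-1 controls and at 242, 212 and 246 CPM in G1-1 overload. These groups did not overlap, and the log2 fold change was 0.25 (SE 0.08, edgeR adjusted p = 0.0166). The call was lost without G1-1 control replicate 2 (0.21) and without G1-1 overload replicate 1 (0.23) or 3 (0.22), and with the epithelial level in the fit (0.06). With Printex90 Abcg1 stood at 209, 188 and 235 CPM in control and at 244, 239 and 252 CPM in overload, again without overlap, but the log2 fold change of 0.22 did not pass (edgeR adjusted p = 0.0621). That value passed at 0.31 without Printex90 control replicate 3, and DESeq2 called it at 0.22. With G3-1 and Bayertitan it was 0.07 and -0.10.

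Apoe, the apolipoprotein that macrophages secrete with cholesterol, was called with Printex90 and not with G1-1, and the test of that difference is given further on. In Printex90 it stood at 1531, 1537 and 1953 CPM in control and at 2503, 2092 and 2562 CPM in overload, with no overlap. Its log2 fold change there was 0.51 (SE 0.12, edgeR adjusted p = 0.00374), which became 0.21 and uncalled with the epithelial level in the fit. In G1-1 it stood at 1815, 1584 and 1548 CPM in control and at 1529, 1236 and 1718 CPM in overload. Those libraries overlap, and the log2 fold change of -0.14 did not pass (edgeR adjusted p = 0.412). With G3-1 and Bayertitan Apoe was at 0.16 and 0.22 on the log2 scale and was not called, although the 3 Bayertitan overload libraries, at 1713, 2088 and 1863 CPM, were all above the controls at 1628, 1642 and 1602 CPM.

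Mylip, the ubiquitin ligase gene, was measured at 10.1 to 19.3 CPM, from 342 to 651 counts a library. It stood at 16.8, 16.3 and 15.1 CPM in the G1-1 controls and at 11.3, 10.1 and 11.8 CPM in G1-1 overload. In Printex90 it stood at 16.2, 14.6 and 18.8 CPM in control and at 10.97, 13.5 and 13.9 CPM in overload. In both, every overload library was below every control. Mylip fell by 0.54 on the log2 scale with G1-1 (SE 0.10, edgeR adjusted p = 0.00012) and by 0.37 with Printex90 (SE 0.10, edgeR adjusted p = 0.0114). The Printex90 call was lost without control replicate 3 (-0.26) and without overload replicate 1 (-0.27), and in a fit of the 9 Printex90 libraries alone (-0.37). With G3-1 the log2 fold change of Mylip was -0.19, and with Bayertitan -0.21, where the 3 overload libraries were below the 3 controls but the edgeR adjusted p was 0.592.

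Lpl, the secreted lipase that frees fatty acids from lipoproteins and is a marker of alveolar macrophages, had the narrowest responses of the 10. Its 36 libraries lay between 2477 and 3730 CPM. The log2 fold changes in overload were -0.03, 0.08, 0.04 and 0.01 for G1-1, Printex90, G3-1 and Bayertitan, and overload and control overlapped with every particle. The 95% intervals of these changes together reached from -0.21 to 0.26.

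Plin2, the droplet coat gene of macrophages, stood at 506, 527 and 598 CPM in the Printex90 controls and at 682, 650.0 and 647 CPM in Printex90 overload. With G3-1 it stood at 517, 482 and 537 CPM in control and at 546, 634 and 698 CPM in overload. Both pairs of groups were free of overlap. Plin2 rose by 0.28 on the log2 scale with Printex90 (SE 0.08, edgeR adjusted p = 0.0242), and the 0.29 with G3-1 (SE 0.08) did not pass at an edgeR adjusted p of 0.119, a comparison in which few genes did. The Printex90 call was lost without control replicate 1 (0.24), control replicate 2 (0.27) or overload replicate 1 (0.26) and with the epithelial level in the fit (0.05), and the G3-1 value passed at 0.38 without overload replicate 1 and at 0.29 in DESeq2. With G1-1 and Bayertitan Plin2 was at 0.15 each, and uncalled.

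Pnpla2, whose product takes the first fatty acid from stored triglyceride, was measured at 94.3 to 157 CPM. The G1-1 overload libraries at 146, 142 and 146 CPM were above the controls at 131, 122 and 129 CPM, but the log2 fold change of 0.18 (SE 0.11) did not pass (edgeR adjusted p = 0.234). With Printex90, G3-1 and Bayertitan Pnpla2 was at -0.04, -0.16 and -0.24 on the log2 scale, with overlapping libraries and no call.

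G0s2, which encodes a protein inhibitor of that lipase, had the fewest counts of the 10, 71 to 362 a library, so its values are the least precise. It stood at 3.85, 4.68 and 2.58 CPM in the Printex90 controls and at 9.64, 10.4 and 7.69 CPM in Printex90 overload. Every overload library was above every control, and G0s2 rose 2.50-fold (log2 1.32, SE 0.30, edgeR adjusted p = 0.00329). In G1-1 it stood at 2.68, 4.55 and 3.72 CPM in control and at 4.27, 6.57 and 9.79 CPM in overload, where the lowest overload library was below the highest control. The log2 fold change of 0.91 (SE 0.30) was called at an edgeR adjusted p of 0.0222, and the call was lost without control replicate 1 (0.74), control replicate 3 (0.91) or overload replicate 3 (0.57) and in a fit of the 9 G1-1 libraries alone (0.92). With G3-1 and Bayertitan G0s2 was at 0.73 and 0.75 with an SE of 0.30 and 0.31, and neither passed. The Bayertitan overload libraries, at 4.01, 4.10 and 5.07 CPM, were all above the controls at 2.11, 2.30 and 3.38 CPM.

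Mgll, whose product cleaves monoglyceride and so completes the breakdown of stored triglyceride, had the smallest p of the 10 genes with G1-1, Printex90, G3-1 and Bayertitan alike. It stood at 136, 131 and 148 CPM in the G1-1 controls and at 249.7, 238 and 295 CPM in G1-1 overload. In Printex90 it stood at 129.7, 129 and 147 CPM in control and at 239, 229 and 221 CPM in overload. In G3-1 the controls were at 122, 110.2 and 133 CPM and overload at 142, 152 and 169 CPM, and in all 3 particles the groups were apart. Mgll rose 1.89-fold with G1-1 (log2 0.92, SE 0.08, edgeR adjusted p = 4.16e-10), 1.70-fold with Printex90 (log2 0.76, SE 0.08, edgeR adjusted p = 5.78e-08) and 1.27-fold with G3-1 (log2 0.34, SE 0.08, edgeR adjusted p = 0.0352). The G3-1 call was lost without control replicate 1 (0.35) or 2 (0.28), without overload replicate 2 (0.36) or 3 (0.28), and in a fit of the 9 G3-1 libraries alone (0.35). Without all 4 G3-1 libraries of high Col3a1 the value was 0.34, with replicate 3 alone left in control and in overload. In Bayertitan the controls at 124, 138 and 136 CPM were below overload at 151, 155 and 154 CPM, and the log2 fold change of 0.21 (95% interval 0.05 to 0.37) did not pass (edgeR adjusted p = 0.4).

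**Figure D2:**
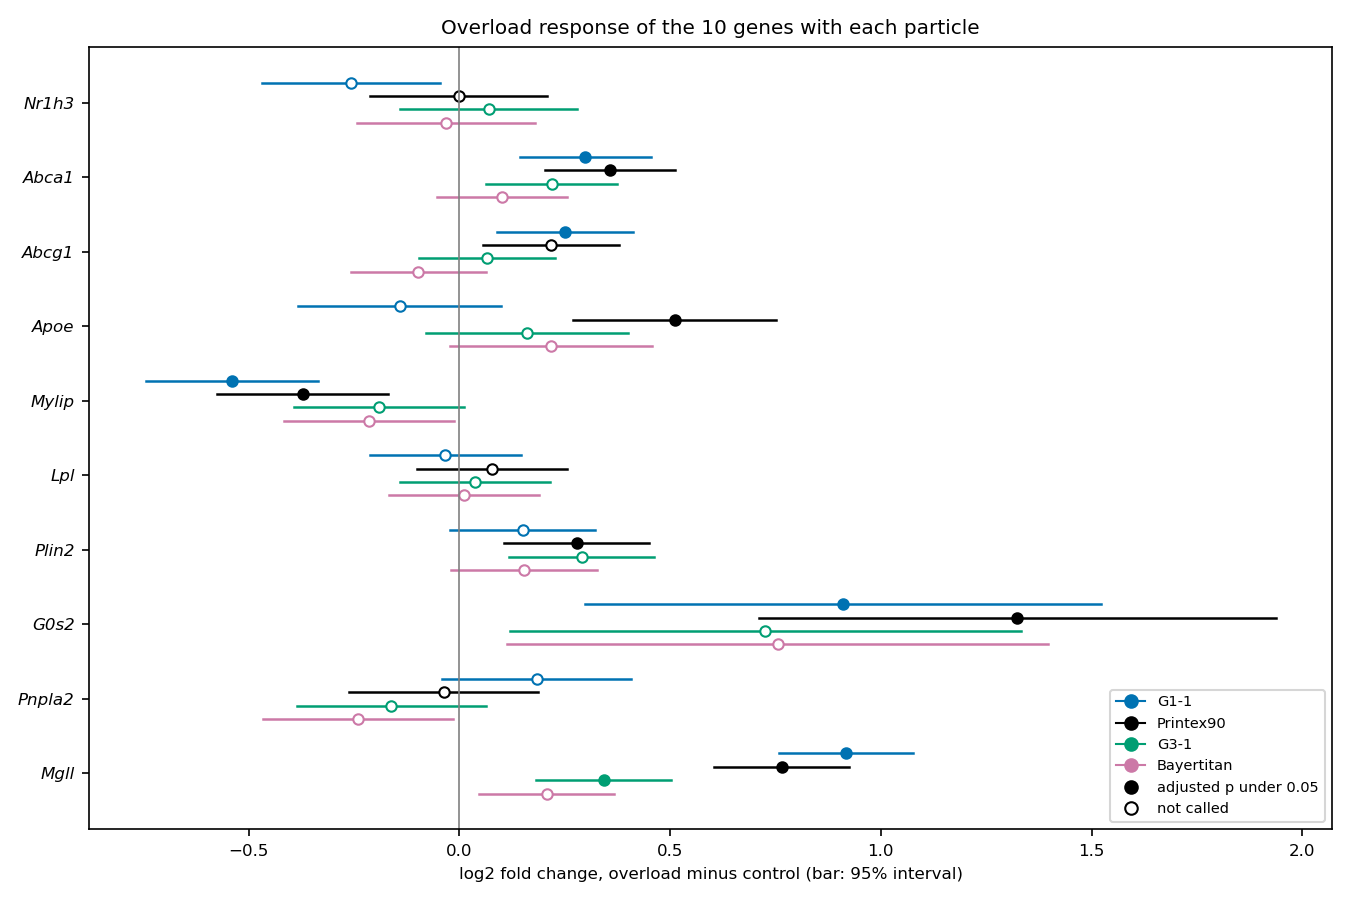
Log2 fold change of the 10 genes in overload against the control of the same particle (horizontal axis), 1 row per gene, with the 95% interval as a bar, a colour per particle and filled points where the adjusted p was under 0.05. G0s2 and Mgll lie to the right of 0 with all 4 particles and Mylip to the left, while the 4 values of Lpl lie between -0.03 and 0.08.

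Over the mean of the 4 overload responses, 7 of the 10 genes were called, 6 higher and 1 lower, where 31.9% of all genes were, 14.4% higher and 17.5% lower. Abca1 (log2 0.24), Abcg1 (0.11), Apoe (0.19), Plin2 (0.22), G0s2 (0.93) and Mgll (0.56) were higher and Mylip (-0.33) was lower. Nr1h3 (-0.05), Lpl (0.02) and Pnpla2 (-0.06) were not called. The Abcg1 mean stood near the threshold: its edgeR adjusted p of 0.0341 rose to between 0.0509 and 0.0691 without any one of 9 libraries, namely G1-1 control replicate 2, G1-1 overload replicate 1 or 3, Printex90 control replicate 2, Printex90 overload replicate 3, G3-1 control replicate 1 or 2, G3-1 overload replicate 3, or Bayertitan overload replicate 1, and its value stayed between 0.09 and 0.11 there. Without the 8 libraries of high Col3a1 it was 0.08 and not called, while the other 6 genes kept their calls.

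Of the 10 genes, Abca1, Abcg1, Plin2 and Mgll followed the epithelial level of the libraries most closely, being higher where it was lower. Over the 36 libraries, centred within each particle, Pearson's r between a gene's log2 level and the mean log2 level of the epithelial markers was -0.88 for Abca1, -0.80 for Abcg1, -0.76 for Plin2, -0.74 for Mgll, -0.60 for Lpl, -0.52 for Apoe, -0.34 for Nr1h3, -0.29 for G0s2, -0.12 for Pnpla2 and 0.31 for Mylip. With the fibroblast marker level, r was -0.67 for Lpl, -0.64 for Nr1h3, -0.49 for Abca1, -0.48 for Abcg1 and -0.44 for Apoe. It was -0.41 for Plin2, -0.31 for Pnpla2, -0.23 for Mylip, -0.23 for Mgll and 0.21 for G0s2. These libraries share treatments and scaling, so the values are a description. With the fibroblast level as a term in the fit, 5 genes were called higher and 2 lower with G1-1 (5080 over all genes). With Printex90 6 were called higher and 1 lower (2135 over all genes). With the epithelial level as a term in the fit, the G1-1 calls became 2 higher and 4 lower, and the Printex90 calls 2 higher and 2 lower. Over all genes, calls went from 4105 to 4456 with G1-1 and from 2155 to 1384 with Printex90. Mgll, G0s2 and Mylip kept their calls with both particles, G0s2 at the larger values of 1.48 with G1-1 and 2.09 with Printex90, and Mylip at -0.59 with Printex90. Abca1 lost its calls with both, Abcg1 its call with G1-1, and Apoe and Plin2 theirs with Printex90. Nr1h3 was then called lower with G1-1 (-0.51) and Printex90 (-0.33), and Apoe (-0.37) and Lpl (-0.25) were called lower with G1-1. In the mean response Abca1 (0.11), Mgll, G0s2 and Mylip stayed called, Nr1h3 was called lower (-0.24), Apoe (0.02) and Plin2 (0.09) were not called, Abcg1 turned to -0.03 without a call, and Lpl turned to -0.13 with one. The mean epithelial level was itself lower in overload than in control, at 4.01 against 4.36 with G1-1 and 3.69 against 4.15 with Printex90. The term thus overlaps with the overload condition, and the fit cannot separate them. The part of epithelial RNA in these results was not tested beyond this fit.

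**Figure D3:**
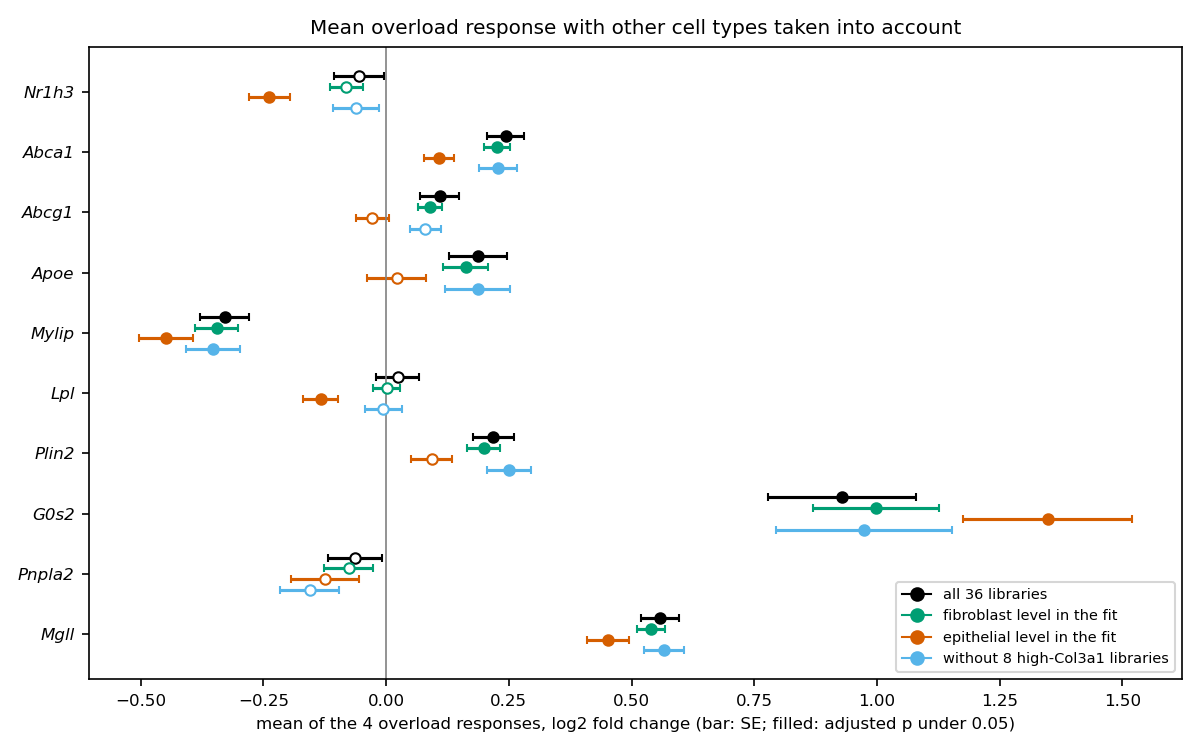
Mean of the 4 overload responses of the 10 genes (log2 fold change on the horizontal axis, bar: SE) in the fit of all 36 libraries, with the fibroblast or the epithelial marker level as a further term, and without the 8 libraries of high Col3a1; filled points had an adjusted p under 0.05. With the epithelial term Mylip, G0s2, Mgll and Abca1 keep filled points on the side they had, Nr1h3 at -0.24 and Lpl at -0.13 become filled on the left of 0, and Apoe at 0.02, Plin2 at 0.09 and Abcg1 at -0.03 become open.

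In the non-overload condition, none of the 10 genes was called against control with any particle, 0 of 40 cases, where 0.25% of all gene cases were called (0.459%, 0.205%, 0% and 0.335% for G1-1, Printex90, G3-1 and Bayertitan). An unadjusted edgeR p under 0.05 was found in 8 of the 40, Apoe with 3 of the 4 particles among them, and DESeq2 called 1 case. The largest values for Apoe were 0.40 with G1-1 and 0.42 with Printex90 on the log2 scale, both with an SE of 0.12 and an edgeR adjusted p of 0.133 and 0.242. Apoe stood at 2207, 2427 and 1914 CPM in G1-1 non-overload and at 2017, 2183 and 2502 CPM in Printex90 non-overload. All 6 of these libraries lay above the controls of their particle, which ended at 1815 and 1953 CPM. G0s2 with Bayertitan, at 4.52, 3.90 and 4.27 CPM, was also above its 3 controls, with a log2 fold change of 0.70 and an edgeR adjusted p of 0.405. Groups were free of overlap for 3, 2, 0 and 5 of the 10 genes with G1-1, Printex90, G3-1 and Bayertitan, beside 17.7%, 9.85%, 9.06% and 16.5% of all genes. These comparisons share their controls with the overload comparisons.

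Set against each other, overload and non-overload differed for 6 of 40 cases, where 6.56% of all gene cases were called, and 5 of the 6 were with G1-1. In G1-1 Mgll was 1.74-fold higher in overload than in non-overload (log2 0.80, SE 0.08), whose libraries stood at 152, 156 and 142 CPM, and Abcg1 was 0.24 higher. Apoe was 0.55 lower on the log2 scale (edgeR adjusted p = 0.000864), Mylip 0.48 lower (edgeR adjusted p = 0.000678) and Nr1h3 0.29 lower (edgeR adjusted p = 0.043). The 3 overload libraries of Apoe, at 1236 to 1718 CPM, were all below the 3 non-overload ones, which began at 1914 CPM. Those 5 genes, 2 higher and 3 lower, stand beside 22.7% of all genes called in this comparison, 10.3% higher and 12.4% lower. With Printex90 Mgll alone was called, at 0.50 (edgeR adjusted p = 0.000202), from 156, 161 and 172 CPM in non-overload, beside 3.51% of all genes. With G3-1 and Bayertitan 0 were called, beside 0.0274% and 0%, and DESeq2 called 7 over the 4 particles. Of these 20 tests, those of Plin2 and Mgll with G3-1 had an unadjusted edgeR p under 0.05. The libraries did not overlap for 5, 4, 1 and 0 of the 10 genes with G1-1, Printex90, G3-1 and Bayertitan, beside 32.8%, 23.3%, 11.3% and 8.85% of all genes.

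The Nr1h3 call between G1-1 overload and non-overload did not hold without non-overload replicate 1 (-0.24) or 2 (-0.24), or overload replicate 1 (-0.32), 2 (-0.20) or 3 (-0.33). For Abcg1 it was lost without non-overload replicate 1 (0.25) or 3 (0.19), or overload replicate 1 (0.21) or 3 (0.20). The calls of Apoe, Mylip and Mgll held without each library in turn. With the epithelial level in the fit 11 of the 40 cases were called, and with the fibroblast level 12. Over all genes, calls with G1-1 rose from 3315 to 4059 and 3957 in these 2 fits, and those with G3-1 from 4 to 63 and 1320.

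**Figure D4:**
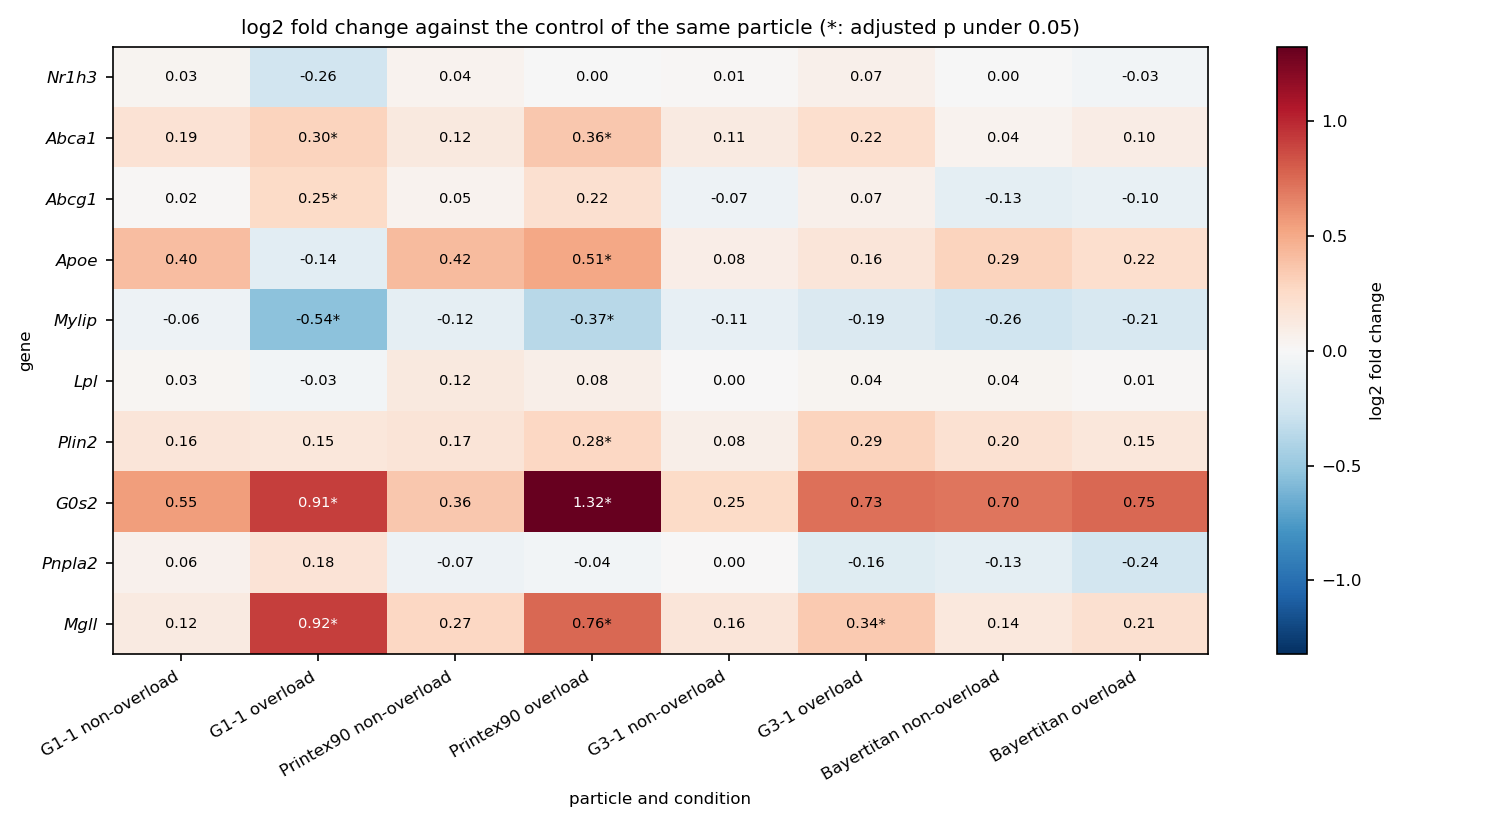
Log2 fold change of the 10 genes (rows) in non-overload and overload (columns) against the control of the same particle, as colour and number, with an asterisk where the adjusted p was under 0.05. The asterisks stand in the overload columns of G1-1, Printex90 and G3-1, and Apoe with G1-1 is at 0.40 in non-overload and at -0.14 in overload.

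Whether the overload response differed between particles was tested for each of the 6 pairs, 60 tests over the 10 genes, of which 5 were called, beside 5.75% of all gene cases. The response of Apoe to G1-1 was lower than that to Printex90 by 0.65 on the log2 scale (SE 0.17, 95% interval -0.99 to -0.31, edgeR adjusted p = 0.00887), in a pair in which 11.1% of all genes were called. Without the 8 libraries of high Col3a1 the Apoe difference was -0.48 and did not pass. The response of Mgll to G1-1 exceeded that to G3-1 by 0.58 (edgeR adjusted p = 0.000693; 9.28% of all genes called) and that to Bayertitan by 0.71 (edgeR adjusted p = 4.23e-05; 12.3%), and its response to Printex90 exceeded that to Bayertitan by 0.56 (edgeR adjusted p = 0.00535; 1.18%). The Mgll responses to G1-1 and Printex90 differed by 0.15, with a 95% interval of -0.07 to 0.38. Printex90 minus G3-1 was 0.42 for Mgll and did not pass (edgeR adjusted p = 0.0706; 0.644%).

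The Abcg1 response to G1-1 exceeded that to Bayertitan by 0.35 (edgeR adjusted p = 0.0377). That call was lost in 9 of the 12 fits that left out 1 library of these groups, with values of 0.30 to 0.36, and with the epithelial level in the fit (0.19). It held only without G1-1 control replicate 1, G1-1 overload replicate 2 or Bayertitan overload replicate 1. For G0s2 no pair passed, and the intervals were wide, from -1.27 to 0.45 for G1-1 minus Printex90. For Mylip the G1-1 response was 0.17 lower than that of Printex90, with an interval of -0.46 to 0.12. G3-1 minus Bayertitan gave 0 calls, as it did over all genes (0%), and none of the 10 genes had an unadjusted edgeR p under 0.05 there.

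Compared with each other, the 4 control groups gave no call for the 10 genes, beside 0.0342% of all genes, or 5. Lpl and Abca1 had unadjusted edgeR p-values of 0.0138 and 0.0139, the 2 of 10 under 0.05, and DESeq2 called 0. Mean Lpl ran from 2758 ± 377 CPM (SD, n = 3) in the G3-1 controls to 3388 ± 3.87 CPM in the Bayertitan controls. When the 12 group means of a gene were put in order, most neighbours lay closer than the larger of their SDs. For Mgll 2 of 11 steps were larger, those from G1-1 overload (261 ± 30.03 CPM) to Printex90 overload (229.6 ± 9.01 CPM) and from there to Printex90 non-overload (163 ± 8.19 CPM). For Abca1 the step below Printex90 overload (1279 ± 28.9 CPM) was larger, for Pnpla2 that below G1-1 overload (145 ± 2.74 CPM), for Mylip that above G1-1 overload (11.1 ± 0.844 CPM) and for G0s2 that above the Bayertitan controls (2.60 ± 0.687 CPM). For Nr1h3, Abcg1, Apoe, Lpl and Plin2 no step was. Nr1h3 and Apoe had their lowest means in G1-1 overload, at 84.5 ± 8.58 and 1494 ± 242 CPM, and Apoe its highest in Printex90 overload, at 2386 ± 256 CPM.

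Other genes of the same pathways were read from 5 lists, 75 of whose genes were tested. In overload 25 of the 75 were called with G1-1, 18 higher and 7 lower, 20 with Printex90, 15 higher and 5 lower, 1 with G3-1 and 0 with Bayertitan. Of all genes tested, 28.1%, 14.8%, 0.568% and 0.329% were called in these comparisons, so the G1-1 count lay near the share over all genes and is no result about these pathways. The lower calls made up 14.4% of all genes with G1-1 and 7.31% with Printex90, and the higher calls 13.7% and 7.45%. The medians of the lists below stand beside -0.019 over all genes with G1-1, -0.015 with Printex90 and -0.0083 with G3-1. With Bayertitan 8 of the 75 had an unadjusted edgeR p under 0.05, and DESeq2 called 1. The Printex90 count was 10 without control replicate 1 and 12 without overload replicate 1, and the G3-1 count ran from 0 to 4 when 1 library was left out. It was 0 without control replicate 1 or 2 or overload replicate 3 and 4 without control replicate 3. Without the libraries of high Col3a1 it was 0, where 0 of all genes were called as well.

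Of 15 tested LXR partners, further LXR targets and apolipoproteins, 2 rose and 4 fell with G1-1 and 1 rose and 3 fell with Printex90, with medians of 0.08 and 0.0022. Srebf1, an LXR target that drives fatty acid synthesis, rose from 79.5 ± 2.91 to 127 ± 16.0 CPM with G1-1 (log2 0.68, SE 0.07) and from 85.2 ± 5.49 to 111 ± 4.02 CPM with Printex90 (log2 0.39, SE 0.07). Lpcat3, which puts unsaturated fatty acids into phospholipids, rose with G1-1 by 0.22. Cd5l, a secreted macrophage protein whose gene is an LXR target in mice, fell from 175 ± 15.5 to 91.8 ± 19.8 CPM with G1-1 (log2 -0.93, SE 0.16) and by 0.49 with Printex90, where 5 of 6 fits that left out a library lost the call. Mertk, a receptor for dying cells and another LXR target in mice, fell by 0.40 with G1-1, and Tnfaip8l2 fell by 0.44. Gps2, a subunit of the corepressor complex that acts on LXR, fell from 20.1 ± 1.52 to 12.2 ± 1.37 CPM with G1-1 (log2 -0.72, SE 0.08). Abca7 fell by 0.22 with Printex90, and its call was lost in each of the 6 fits that left out 1 library. With G3-1 and Bayertitan 0 of the 15 were called.

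Among 8 lipoprotein receptors and their partners, 3 rose with G1-1 and 3 with Printex90, and none fell with either. The medians of the 8 were 0.11 and -0.0040. Vldlr, a substrate of the Mylip protein, rose with Printex90 from 32.8 ± 5.08 to 47.3 ± 3.29 CPM (log2 0.53, SE 0.14). Scarb1, the scavenger receptor for high-density lipoprotein, rose from 243 ± 15.7 to 422 ± 62.7 CPM with G1-1 (log2 0.79, SE 0.12) and from 271 ± 32.8 to 454 ± 13.9 CPM with Printex90 (log2 0.74, SE 0.12). Lrp1 rose by 0.19 with G1-1, which became 0.09 and uncalled with the epithelial level in the fit.

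Of 13 genes of oxysterol formation, cholesterol ester turnover and lysosomal cholesterol, 5 rose with G1-1, and 4 rose and 1 fell with Printex90, with medians of 0.16 and 0.09. Npc1, a lysosomal cholesterol exporter, rose from 162 ± 7.97 to 230 ± 15.8 CPM with G1-1 (log2 0.51, SE 0.07) and by 0.26 with Printex90. Soat1, which makes cholesterol esters, rose by 0.35 and 0.23. Ch25h, which forms the LXR ligand 25-hydroxycholesterol, rose with G1-1 from 33.9 ± 2.34 to 48.8 ± 3.76 CPM (log2 0.53, SE 0.11). With the epithelial level in the fit the Printex90 calls of Soat1 (0.10), Npc1 (0.05), Npc2 (0.04), Osbpl1a (0.09) and Sult2b1 (-0.35) were lost.

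Of 24 lipid droplet genes, 4 rose and 2 fell with G1-1, 6 rose and 1 fell with Printex90, and 1, Spart, rose with G3-1, with medians of 0.00073, 0.07 and 0.07. Dgat2, which makes triglyceride, rose from 123 ± 4.84 to 178 ± 12.7 CPM with G1-1 (log2 0.53, SE 0.06) and from 127 ± 5.52 to 177 ± 4.59 CPM with Printex90 (log2 0.48, SE 0.06). Gpat3, an earlier enzyme of the same route, rose by 0.54 and 0.32. Hilpda, a droplet protein that inhibits the Pnpla2 lipase as G0s2 does, rose by 0.69 with G1-1, from 11.7 ± 0.387 to 18.8 ± 4.18 CPM, and by 0.45 with Printex90, a call lost with the epithelial level in the fit (0.40). Abhd5, the activator of the Pnpla2 lipase, rose by 0.16 with Printex90 and lost its call in 4 of 6 fits that left out a library. Cidea (-0.34) and Acsl3 (-0.21) fell with G1-1.

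Of 15 genes of lipoprotein lipase control and fatty acid uptake, 4 rose and 1 fell with G1-1 and 1 rose with Printex90, with medians of 0.05 and 0.09. Lmf1, which helps lipoprotein lipase to fold, and Lmf2 rose with G1-1 by 0.19 and 0.35, with Ppargc1b (0.33) and Ppard (0.23). Cpt1a, the gate of mitochondrial fatty acid oxidation, fell by 0.36 with G1-1. Fabp5, a fatty acid binding protein, rose with Printex90 from 507 ± 34.3 to 786 ± 30.8 CPM (log2 0.63, SE 0.09).

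Several of these list calls did not hold in fits that left out a library. With 1 library left out, the Printex90 call was lost in 5 of 6 fits for Npc2, in 4 for Sult2b1, in 3 for Npc1 and Lpin2, in 2 for Hilpda, and in 1 for Soat1. The G1-1 call was lost in 4 of 6 fits for Cidea, in 3 for Lmf1, and in 2 for Npc2, Lrp1 and Cpt1a, and the G3-1 call of Spart in 3. Srebf1, Scarb1, Dgat2 and Gpat3 kept their calls with both G1-1 and Printex90 in all of these fits.

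**Figure D5:**
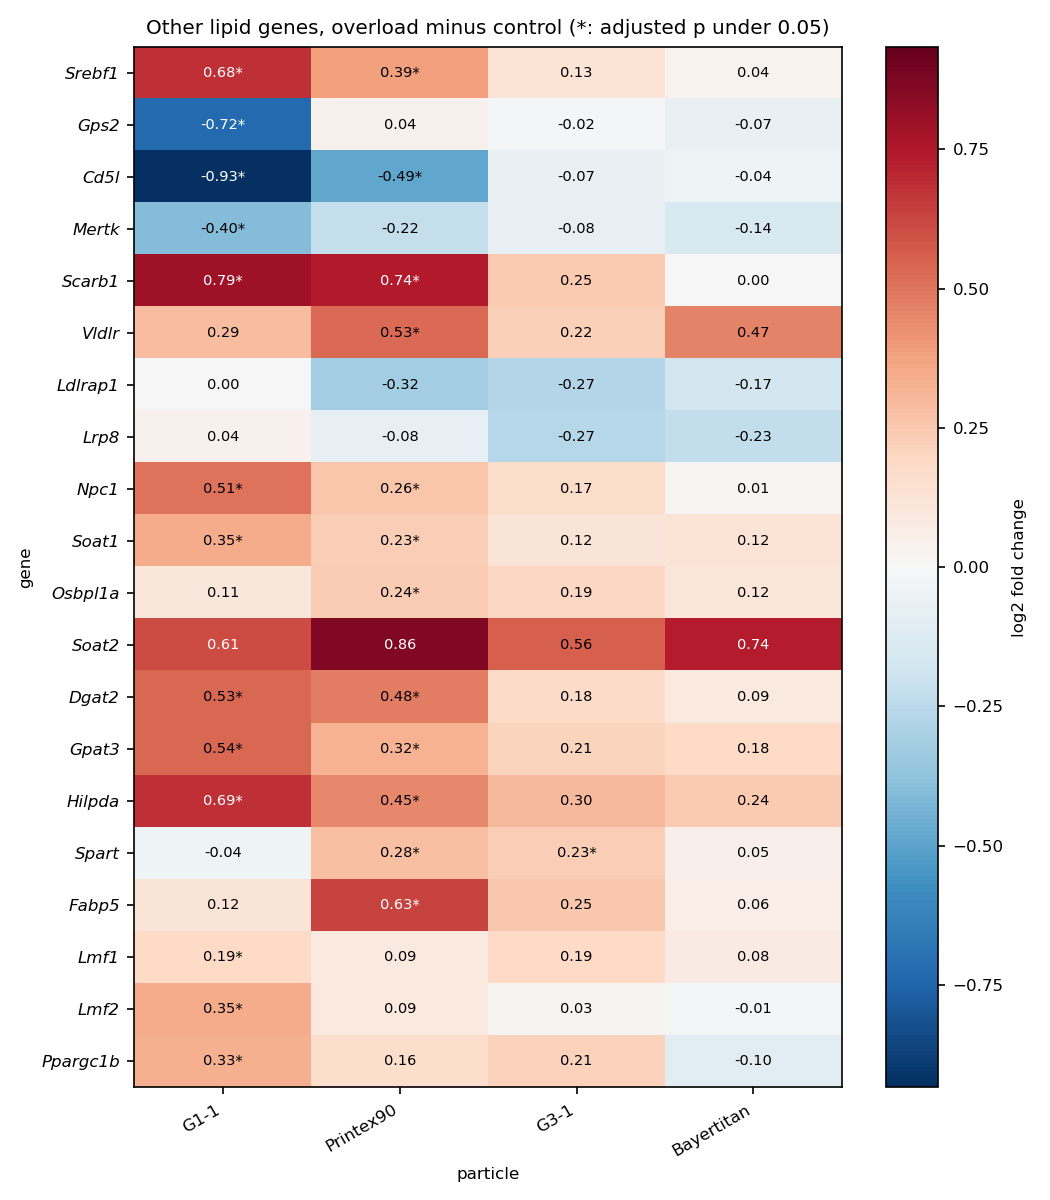
Log2 fold change in overload against control with each particle (columns) of 4 genes from each of the 5 lists (rows), those of smallest p in the mean response, as colour and number, with an asterisk where the adjusted p was under 0.05. Srebf1, Scarb1, Npc1, Soat1, Dgat2, Gpat3 and Hilpda, which were higher, and Cd5l, which was lower, carry an asterisk with both G1-1 and Printex90, and none of the 20 does with Bayertitan.

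The genes whose levels were most like those of the 10 were sought among 11425 others, by Pearson's r of log2 levels over the 36 libraries after centring within each particle. These libraries share treatments and scaling, so each r is a description. Mgll was most like Cxcr1 (r = 0.98) and Mfsd11 (0.98). Abca1 was most like Tpp1, a lysosomal peptidase (0.94), and Gpnmb, a lysosomal membrane glycoprotein (0.93). G0s2 was most like Aldoc, a glycolytic aldolase (0.90), and Bnip3, a mitophagy receptor (0.89). Plin2 was most like Plbd1 (0.92) and Gmpr (0.90), Abcg1 like Slc8b1 (0.92) and Cyfip2 (0.91), and Nr1h3 like Myo1f (0.91) and Stx6 (0.90). Apoe was most like the lipid receptor genes Cd300le (0.88) and Trem2 (0.87), Lpl like Pik3ap1 (0.89) and Atp1b1 (0.88), and Mylip like Adgre1 (0.87) and Gclc (0.87). Pnpla2 had the loosest likeness, to Naglt1 (0.69) and Ube2g2 (0.62).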

How the data were processed

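The values are expected counts of 23487 genes in 36 libraries, deposited as 1 table, and 30.5% of them had decimals. The submitters' processing notes name Salmon, FastQC, MultiQC and the build Rnor_6.0 without versions or settings. Per the labels' protocols, libraries were made from total RNA after depletion of ribosomal RNA. Columns were matched to samples by their names, and none was left unused. Reads of similar or overlapping genes can be split between them by the authors' counting.

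Rounded to whole numbers, the deposited expected counts went into edgeR 4.0.16 (R 4.3.3): TMM scaling, filterByExpr (minimum count 10, minimum total 15), 1 coefficient per group over 36 libraries and 24 residual degrees of freedom, with Benjamini-Hochberg adjustment over 14606 genes. The common biological coefficient of variation was 0.103. Levels are CPM on TMM-scaled library sizes, with no correction for gene length, so levels of different genes are not compared. Means of log2 levels used a pseudocount of 1. The pipeline was tested on simulated counts. In the 36 replicate pairs, chi-square over its degrees of freedom was 3.82 to 37.2, a wider spread than counting noise alone gives. Each library was fitted as its own unit. The ratio cannot tell separate animals or cultures from separate preparations of the same cells.

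The members, lists and markers were chosen with earlier results of these data known. Named were all 10 genes, per list the 4 genes of smallest p in the mean response, those of a list where 5 or fewer were called, and 2 genes of like pattern per member with a mean of at least 1 CPM. Pathway genes called beyond that rule were chosen after their values were seen. Alternatives were DESeq2 1.42.0, its size factors, no filter, single libraries left out, a replicate block, fits within a particle, marker levels as terms and exclusion of libraries with Col3a1 above 10 CPM. For the lists they were chosen after seeing the data. Some listed genes are not reported here by name, though the counts and medians of their lists include those that were tested. Promoters came from RefSeq's GRCr8 annotation, a build other than that of the counts, and are used by gene symbol only.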

Additional observations from a re-analysis of the deposited data

Results flagged for a closer look

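Overload responses that differed between particles by a test of the difference itself (edgeR's quasi-likelihood test, adjusted over all genes) were found for 3 of the 10 genes. These were 5 of 60 tests, beside 5.75% of all gene cases, so the count lay near that share and is no result about the 10 genes together. In the pairs of G1-1 with Printex90, G3-1 and Bayertitan, 11.1%, 9.28% and 12.3% of all genes were called. Apoe responded less to G1-1 than to Printex90, with a difference of -0.65 on the log2 scale, which was -0.48 and no longer called without the 8 libraries of high Col3a1. The response to G1-1 itself, at a log2 change of -0.14 with overlapping libraries, was not called, and that to Printex90 was 0.51. Mgll responded more to G1-1 than to G3-1, by 0.58, and more than to Bayertitan, by 0.71. Its response to Printex90 exceeded that to Bayertitan by 0.56. Abcg1 responded more to G1-1 than to Bayertitan, by 0.35, a call that most fits with 1 library left out did not keep. Groups of 3 libraries are too small for a search for single outlying libraries.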

How the results depend on the processing

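For 30 called and 31 uncalled values of the 10 genes, 42 fits with 1 library left out lost a call, 4 gained one and 530 left the status as it was. Under the other alternatives 18 lost a call, 13 gained one, 440 left the status as it was, and 2 reversed sign with a call before or after. The unchanged cases include values that were uncalled both times, so they do not count kept calls alone. With the epithelial level in the fit, the mean responses of Abcg1 (-0.028), Lpl (-0.13), Lsr (0.12) and Abhd6 (-0.011) changed sign. The count of pathway genes called in the mean response fell from 38 to 24, while that of all genes fell from 4660 to 3125. The cause was not tested. The G3-1 overload count of 1 among the 10 genes was 0 without the libraries of high Col3a1 and with only the 9 libraries of the particle, where fewer samples were fitted, and 2 in DESeq2. Over all genes the G3-1 overload calls went from 83 to 0 and 1 in those fits of fewer samples and to 208 in DESeq2. The G3-1 pathway count of 1 was 0 in the same fits of fewer samples. The Bayertitan pathway count of 0 was 1 with the epithelial level, in the 9 libraries alone and in DESeq2. All-gene calls with Bayertitan there were 111, 55 and 126, beside 48 in the main fit. Non-overload against control went from 0 cases to 3 with the fibroblast level and 1 in DESeq2. Overload against non-overload went from 6 to 12 with the fibroblast and 11 with the epithelial level, and the differences between particles from 5 to 10 with either. Calls over all genes rose too, except where they stayed at 0. For G1-1 non-overload against control they went from 67 to 179 with the fibroblast level and 180 in DESeq2. With the fibroblast and the epithelial level, those between G1-1 overload and non-overload went from 3315 to 3957 and 4059. Those of G1-1 minus Bayertitan went from 1790 to 2583 and 2168. Whether the 10 genes gained more calls than others was not tested. With 1 library left out, counts among the 10 genes ran from 3 to 5 for G1-1 overload (3 without overload replicate 3), 4 to 6 for Printex90, 0 to 2 for G3-1, 0 for Bayertitan, and 6 to 7 for the mean. Those of pathway genes ran from 22 to 30 for G1-1, 10 to 24 for Printex90 and 0 to 4 for G3-1. The replicate numbers did not pair the samples throughout: 16 of 36 correlations between libraries of the same number were over 0.1, in a range of -0.33 to 0.64. All 3 were over 0.1 between Printex90 control and non-overload (0.24, 0.48 and 0.61) and between Bayertitan control and overload (0.19, 0.14 and 0.11), where the block left 0 calls among the 10 genes. With the replicate block, 6, 7, 1 and 0 of the 10 genes were called for G1-1, Printex90, G3-1 and Bayertitan overload, 7 in the mean, 0 in non-overload, 7 between the conditions and 5 between particles. Over all genes the overload calls with the block were 4295, 2393, 109 and 75. The block could not be fitted for the controls, nor the fits within a particle for the mean, the differences and the controls.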
